A study of Mus musculus with 9 samples.

Results

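The p53 gene and its direct targets were examined as a set of 9 genes, namely Trp53, which encodes p53, and Cdkn1a, Mdm2, Aen, Ccng1, Trp53inp1, Sesn2, Zmat3 and Phlda3. They were picked by symbol, and all 9 were found among the 24342 genes with a unique name in a table of 9 RNA sequencing libraries. The libraries came from tumour-derived mouse mammary cell lines of FVB/N background that carry MMTV-neu, a transgene that expresses the oncogene neu (Erbb2) from a mammary tumour virus promoter active in mammary epithelium. Of these, 4 were labelled Jak1 knockout (lines 45555, 47298, 45566B and 46295) and 5 labelled Jak1 wild type (lines 45555, 47298, 45566B, 33373 and 33377). Jak1 encodes a kinase downstream of interferon and gp130 cytokine receptors. Lines 45555, 47298 and 45566B had a library in each state, titled Cre for knockout and Wt for wild type, and were treated with puromycin in both. In these lines the Jak1 state and the Cre step thus cannot be told apart. Line 46295, titled D6, was sequenced as knockout, and 33373 and 33377 as wild type, without a partner. Cultures were adherent, and their medium held hydrocortisone, insulin, serum and EGF. No agent given to damage DNA is named in the labels. Whether puromycin or the Cre step acted on these genes was not tested. Each line and state was 1 library, with no separate cultures labelled, so p-values measure only the spread between these libraries. Within lines this is how the knockout minus wild-type difference varies from line to line. Its technical and biological parts cannot be told apart.

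p53 is a transcription factor that is held at a low protein level by Mdm2, an E3 ubiquitin ligase that is itself made from a p53 target gene. When DNA damage or oncogene signals release p53 from Mdm2, it binds response elements near its targets and raises their transcription, which can arrest the cell cycle, repair DNA or start apoptosis. The product p19Arf of the Cdkn2a locus, which blocks Mdm2, links oncogenes to p53 and is often lost in tumour lines. Because p53 is controlled mostly as a protein, the level of Trp53 RNA is not a measure of p53 activity, and these libraries do not show whether the gene carries a mutation.

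To show the sequence before these genes, the promoter windows that RefSeq (build GRCm38.p6) gives for the members were searched for the p53 consensus response element on both strands. The element was taken as 2 adjacent copies of the 10-base p53 consensus, 20 bases in all, with no spacer and with the core CNNG of each copy kept. Windows ran from 250 bases before to 50 bases after an annotated start, and 7 of the 9 members had 9 windows in all, with none for Trp53inp1 and Zmat3. An element with at most 1 mismatch was present in a window of Cdkn1a and in that of Ccng1, against 0.067% of 32851 windows of all genes. With up to 3 mismatches, an element was also present in Aen and in Trp53, against 1.38% of all windows. The 250 bases before the start are printed for Cdkn1a, Ccng1 and Aen, because these windows hold the closest matches among the targets, with the element in capitals. That of Cdkn1a lies on chr17:29090729-29090978 on the plus strand and belongs to an upstream start of the gene. That of Ccng1 lies on chr11:40755287-40755536 on the minus strand, and that of Aen, for the downstream of its starts, on chr7:78895808-78896057 on the plus strand.
Cdkn1a: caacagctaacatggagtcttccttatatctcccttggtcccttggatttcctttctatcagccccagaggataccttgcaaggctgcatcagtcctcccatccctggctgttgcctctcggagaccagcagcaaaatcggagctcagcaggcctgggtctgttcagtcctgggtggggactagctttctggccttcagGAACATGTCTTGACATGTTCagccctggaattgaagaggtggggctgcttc
Ccng1: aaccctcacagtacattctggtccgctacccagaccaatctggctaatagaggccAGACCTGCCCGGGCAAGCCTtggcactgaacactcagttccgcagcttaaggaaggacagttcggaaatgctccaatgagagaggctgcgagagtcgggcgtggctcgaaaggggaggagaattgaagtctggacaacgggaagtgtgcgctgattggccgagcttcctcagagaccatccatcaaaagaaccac
Aen: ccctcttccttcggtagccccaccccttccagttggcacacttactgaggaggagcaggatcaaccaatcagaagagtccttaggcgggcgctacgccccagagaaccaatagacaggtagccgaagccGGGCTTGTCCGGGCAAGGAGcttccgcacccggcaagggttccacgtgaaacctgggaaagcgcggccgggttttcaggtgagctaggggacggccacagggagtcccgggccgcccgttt
Counted from the start, the element began at -51 in Cdkn1a, at -195 in Ccng1 and at -121 in Aen. It had 1 mismatch in Cdkn1a, 1 in Ccng1 and 3 in Aen. The windows of Mdm2, Sesn2 and Phlda3 and the downstream start of Cdkn1a held no match by this rule, which says only that these letters are not in these windows. Binding was not measured.

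Levels are in FPKM, which divides a gene's fragments by its transcript length and by the size of the library, so they can be set beside each other between genes. Summed FPKM ran between 567403 and 721751 a library and 10821 to 11622 genes reached 1 FPKM. The number of fragments behind a value is unknown, but the steps of low values put the shallowest library (46295 knockout) at 0.416 times the depth of the deepest (45566B wild type). Jak1 was at 74.4, 27.5, 14.2 and 23.0 FPKM in the knockout libraries of 45555, 47298, 45566B and 46295. The wild-type libraries of 45555, 47298, 45566B, 33373 and 33377 held 86.7, 63.1, 16.1, 19.4 and 54.6 FPKM. Jak1 RNA was thus present in every knockout library, and since a value for a whole gene cannot show a deleted part, it does not check the labels. The states of line 47298 also differed in cell-type markers, with 8 fibroblast markers summing to 331 FPKM in its knockout library and 4897 FPKM in its wild-type library. In wild type, Col1a1 (1728 FPKM) and Col1a2 (2510 FPKM) made up most of that sum, and they were at 65.5 and 94.3 FPKM in knockout. Pdgfra, Pdgfrb and Thy1 were also lower in knockout, while Dcn was higher (27.3 against 12.2 FPKM). Fap and Lum were below 1 FPKM in both. The 8 fibroblast markers summed to 3750 and 4387 FPKM in 45555 knockout and wild type, and to 1.22 and 1.02 FPKM in 45566B knockout and wild type. The 8 luminal epithelial markers summed to 414 and 99.8 FPKM in 47298 knockout and wild type, to 7.24 and 6.95 FPKM in 45555, and to 2947 and 2911 FPKM in 45566B. The unpaired libraries differed too, with fibroblast and luminal sums of 3.03 and 2915 FPKM in 46295 knockout. These sums were 197 and 2270 FPKM in 33373 wild type, and 184 and 162 FPKM in 33377 wild type. Epcam and Cdh1, which define epithelium, were below 1 FPKM in the 4 libraries of 45555 and 47298, so these defining markers were nearly absent from lines labelled as mammary tumour cells, while the keratin Krt8 was at 157 FPKM in 47298 knockout. Of 5 basal and myoepithelial markers, the basal keratins Krt5 and Krt14 were at most 0.165 FPKM in those 4 libraries. Acta2, a contractile gene that mesenchymal cells also express, was at 1296 and 178 FPKM in 45555 knockout and wild type, at 11.8 and 108 FPKM in 47298, and at 0.062 and 0.16 FPKM in 45566B. The part of these markers in the values of the 9 genes and of the lists was not tested. Immune markers summed to at most 0.171 FPKM in knockout and 0.300 FPKM in wild-type libraries, with Cd3e listed at 0 in every library. Endothelial markers summed to at most 4.08 FPKM in knockout and 6.43 FPKM in wild-type libraries. In a culture of mixed cells, fewer cells of a type and less RNA per cell cannot be told apart.

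Trp53 itself was among the steadiest genes of the table and stood slightly higher in the knockout library of every paired line. Its level was 113, 75.9, 112 and 74.3 FPKM in the knockout libraries of 45555, 47298, 45566B and 46295. In the wild-type libraries of 45555, 47298, 45566B, 33373 and 33377 it was 77.9, 68.0, 96.4, 88.8 and 84.7 FPKM. The knockout libraries held the 2 highest values and 2 of the 3 lowest, so the states overlapped, and the highest library exceeded the lowest by 1.66 times. The standard deviation of log2(FPKM + 1) over the 9 libraries was 0.26, and 14.5% of 12198 genes tested had a smaller one. Within lines the log2 difference, knockout minus wild type, was 0.53 in 45555, 0.16 in 47298 and 0.21 in 45566B. The mean of 0.30 (SE 0.17, n = 3 lines) did not pass the test across all genes (limma with the line as a block, adjusted p = 0.762). The other p53 family genes were lower, with Trp63 at 0.0084 to 2.36 FPKM and Trp73 at 0.02 FPKM in 45555 knockout and listed at 0 in the other 8 libraries.

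**Figure D1:**
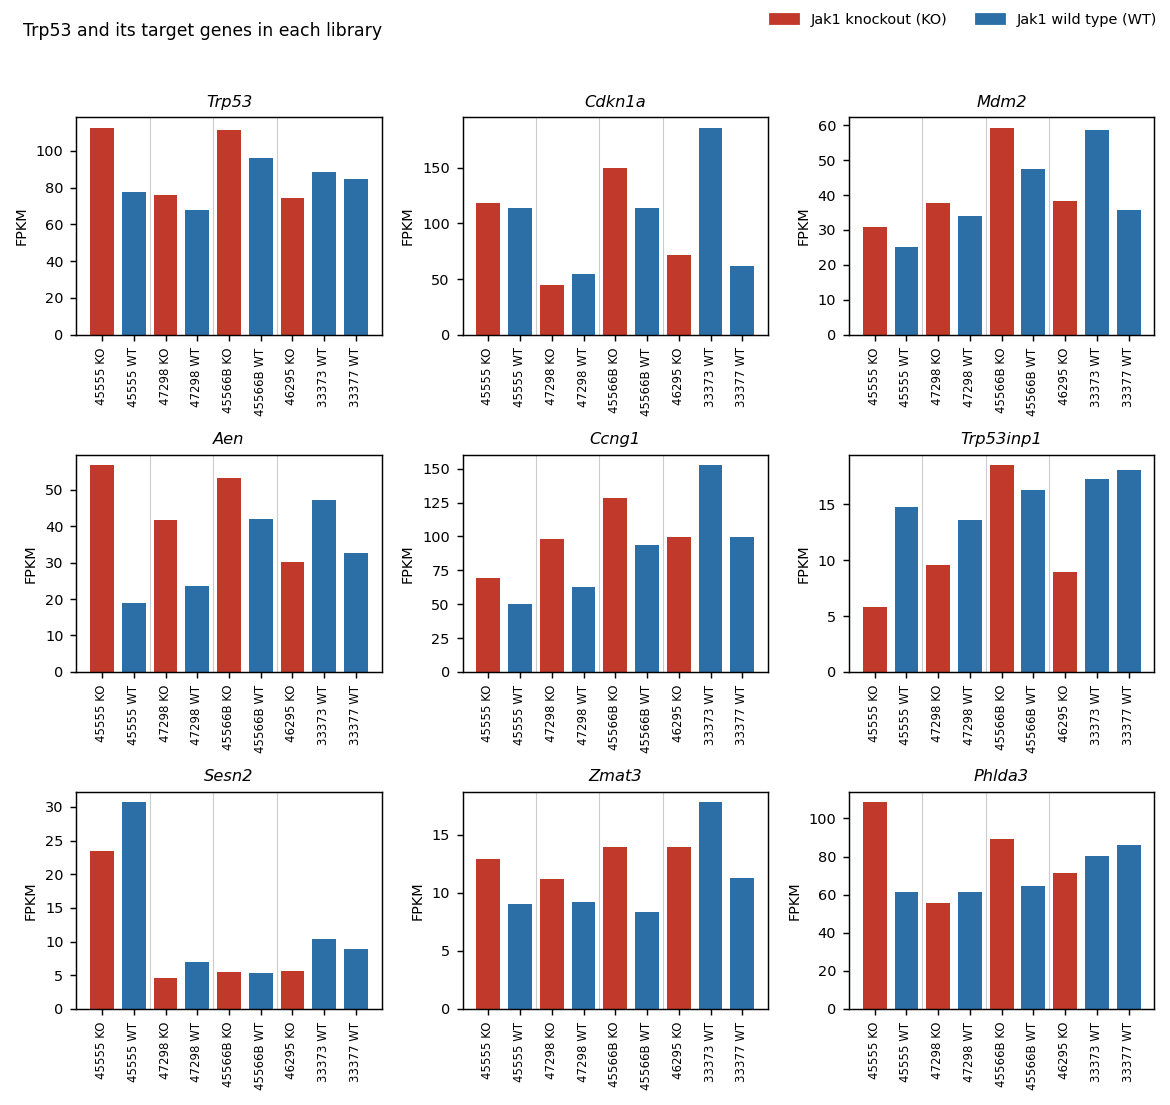
Bars show FPKM of Trp53 and its 8 targets in each of the 9 libraries (1 bar per library, red for Jak1 knockout and blue for Jak1 wild type, linear axes from 0, grey lines between lines). Trp53, Mdm2, Aen, Ccng1 and Zmat3 stand higher in the knockout bar of each of the 3 pairs, and Sesn2 stands at 23.5 and 30.7 FPKM in line 45555 against at most 10.5 FPKM elsewhere.

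Mdm2 and Ccng1, both among the targets that feed back on p53, had similar profiles over the libraries. Mdm2 was at 30.8, 37.9, 59.3 and 38.2 FPKM in the knockout libraries of 45555, 47298, 45566B and 46295, against 25.1, 34.1, 47.6, 58.7 and 35.6 FPKM in wild type, for 45555, 47298, 45566B, 33373 and 33377. Both libraries of 45566B and that of 33373 were the high ones, and those of 45555 the low ones. Its within-line differences were 0.28, 0.15 and 0.31 on the log2 scale for 45555, 47298 and 45566B, with a mean of 0.25 (SE 0.14, limma adjusted p = 0.762).

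Ccng1 encodes cyclin G1, which recruits a phosphatase to Mdm2. It was at 69.0, 98.4, 128 and 99.4 FPKM in knockout libraries and at 50.4, 62.8, 93.8, 153 and 99.3 FPKM in wild-type libraries, in the same order of lines. The knockout library was the higher one in each pair, by 1.37 times in 45555, 1.57 times in 47298 and 1.37 times in 45566B. The unpaired libraries lay at or above the paired knockout libraries' median, and over all 9 the states overlapped. The mean within-line difference of 0.51 (SE 0.15) had an unadjusted p of 0.0258 and an adjusted p of 0.762 (limma). Over the 9 libraries Mdm2 and Ccng1 had a Pearson r of 0.907 and a Spearman rho of 0.85, the highest r of the 36 pairs of members. These points share lines and scaling, and the value is given as a description.

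Cdkn1a, which encodes the cyclin-dependent kinase inhibitor p21, had no common direction between the Jak1 states. Its level was 118, 44.4, 149.7 and 71.4 FPKM in the knockout libraries of 45555, 47298, 45566B and 46295. The wild-type libraries of 45555, 47298, 45566B, 33373 and 33377 held 114, 54.8, 114, 186 and 62.0 FPKM. From low to high, both libraries of 47298 came first, then 33377 and 46295, then 45555 and 45566B, and 33373 was highest, 4.19 times above the lowest. The wild-type libraries of 45555 and 45566B were equal to within 0.1 FPKM, so these neighbours do not differ beyond the spread within a line. Within lines the log2 difference was 0.06 in 45555, -0.30 in 47298 and 0.40 in 45566B, with a mean of 0.05 (SE 0.20, limma adjusted p = 0.945). The sign of that mean turned to -0.12 without 45566B.

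Aen, a nuclease that takes part in apoptosis, showed the largest within-line difference of the 9 genes. It was at 56.8, 41.8 and 53.3 FPKM in the knockout libraries of 45555, 47298 and 45566B and at 19.04, 23.6 and 42.1 FPKM in their wild-type libraries. The difference was large in 45555 (1.53 on the log2 scale, 2.98 times) and smaller in 47298 (0.80) and in 45566B (0.33, 1.27 times). The unpaired libraries went the other way, with 30.3 FPKM in 46295 knockout against 47.2 and 32.7 FPKM in 33373 and 33377 wild type. Leaving out 45555 lowers the mean difference to 0.57. The mean over the 3 lines was 0.89 (SE 0.28), with an unadjusted p of 0.0321 and an adjusted p of 0.762 (limma).

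Zmat3, an RNA-binding zinc-finger protein, was among the lower members. It was at 12.9, 11.2 and 14.0 FPKM in the knockout libraries of 45555, 47298 and 45566B, a mean of 12.7 ± 1.39 (SD, n = 3), and at 9.02, 9.23 and 8.38 FPKM in their wild-type libraries, a mean of 8.87 ± 0.443 (SD, n = 3). It was the 1 member of 9 with every paired knockout value above every paired wild-type value, a pattern found in 1.49% of 12063 genes tested. The unpaired libraries did not keep it, with 13.9 FPKM in 46295 knockout and 17.8 and 11.3 FPKM in 33373 and 33377 wild type. The mean within-line difference was 0.47 (SE 0.17), with an unadjusted p of 0.0495 and an adjusted p of 0.762 (limma).

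Phlda3, which restrains Akt by competing for membrane lipids, was at 109, 55.5 and 89.2 FPKM in the knockout libraries of 45555, 47298 and 45566B, and at 61.6, 61.1 and 64.4 FPKM in their wild-type libraries. The wild-type values were nearly equal (SD 1.75 FPKM) while the knockout values spread widely (SD 26.9 FPKM). The knockout library was higher in 45555 and 45566B and lower in 47298, and the mean difference of 0.38 (SE 0.24) did not pass (adjusted p = 0.762). The unpaired libraries held 71.3 FPKM in 46295 knockout and 80.1 and 86.0 FPKM in 33373 and 33377 wild type.

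Trp53inp1, a stress-induced nuclear protein linked to apoptosis and autophagy, was lower in 3 of the 4 knockout libraries than in any wild-type library. It was at 5.84, 9.60, 18.5 and 8.96 FPKM in the knockout libraries of 45555, 47298, 45566B and 46295, against 14.8, 13.6, 16.3, 17.2 and 18.1 FPKM in wild-type 45555, 47298, 45566B, 33373 and 33377. The exception was 45566B knockout, the highest library of all. The difference was -1.21 in 45555, -0.47 in 47298 and 0.18 in 45566B. Over the 9 libraries it was -0.64 (SE 0.28), with an unadjusted p of 0.0513 and an adjusted p of 1.000 (limma without a block). Within lines it was -0.50 (SE 0.31, adjusted p = 0.762), with -0.14 without 45555 and -0.84 without 45566B.

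Sesn2, a sestrin that restrains mTORC1 when amino acids are short, was set apart by line 45555. It was at 23.5, 4.58, 5.45 and 5.67 FPKM in the knockout libraries of 45555, 47298, 45566B and 46295, against 30.7, 7.02, 5.31, 10.5 and 8.85 FPKM in wild type. Both libraries of 45555 lay above all others, with a mean of 27.1 FPKM against 5.80 in 47298 and 5.38 in 45566B. Its within-line differences were -0.37, -0.52 and 0.03 for 45555, 47298 and 45566B, with a mean of -0.29 (SE 0.19, adjusted p = 0.762).

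Taking the 9 genes together within lines, 5 of 9 (Trp53, Mdm2, Aen, Ccng1 and Zmat3) were higher in the knockout library of all 3 lines, against 14.3% of 12063 genes tested. None was lower in all 3, against 13.3% of genes. The count was 5 also after each library was rescaled to the same 75th percentile. Without line 47298, where the summed fibroblast markers differed most between the states, 7 of 9 were higher in both other lines, against 25.6% of genes, Cdkn1a and Phlda3 being the additional 2. Without 45555, 5 of 9 were higher and 0 lower in both other lines, against 24.5% and 20.4% of genes. Without 45566B, 5 of 9 were higher and 2 lower (Trp53inp1 and Sesn2), against 26.6% and 29.6% of genes. The median of the 9 mean differences was 0.30, against -0.01 over all genes. The knockout libraries counted here are those titled Cre, so the Jak1 state and the Cre step cannot be told apart in these counts. Members were chosen with earlier results of these data known and share a regulator, so the count describes them and is not a test.

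None of these differences passed across all genes. limma called 0% of the 12063 genes within lines at an adjusted p under 0.05, and 0 of 9 members. At an unadjusted p under 0.05 there were 3 of 9 members (Aen, Ccng1 and Zmat3) and 406 genes, or 3.37%. Over all 9 libraries limma likewise called 0% of 12198 genes and 0 of 9 members, while 144 genes had an unadjusted p under 0.05. The knockout and wild-type values of all 9 members overlapped over the 9 libraries, as did those of all but 0.443% of genes. This comparison shares 6 libraries with the within-line one.

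Line by line, without a test, the set was most uniform in direction in 45566B. In 45566B all 9 members were higher in knockout, with log2 differences of 0.03 to 0.67 and a median of 0.33, in a line where 52.1% of genes were higher and the median gene differed by 0.01. The differences were small, and no member passed 1 log2 unit in either direction, as 0.988% of genes did upward and 2.52% downward. The middle 50% of genes in that line lay between -0.12 and 0.14, so 8 of 9 members lay above the upper quartile, from Trp53inp1 at the 80.3rd percentile to Zmat3 at the 98.3rd. In 45555, 7 of 9 were higher and the median was 0.45, with Aen past 1 log2 unit upward (3.51% of genes) and Trp53inp1 past it downward (7.30% of genes). In 47298, 5 of 9 were higher, the median was 0.15, and no member passed 1 log2 unit, as 9.10% of genes did upward and 11.8% downward. These are single libraries a state, so no test was made within a line.

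**Figure D2:**
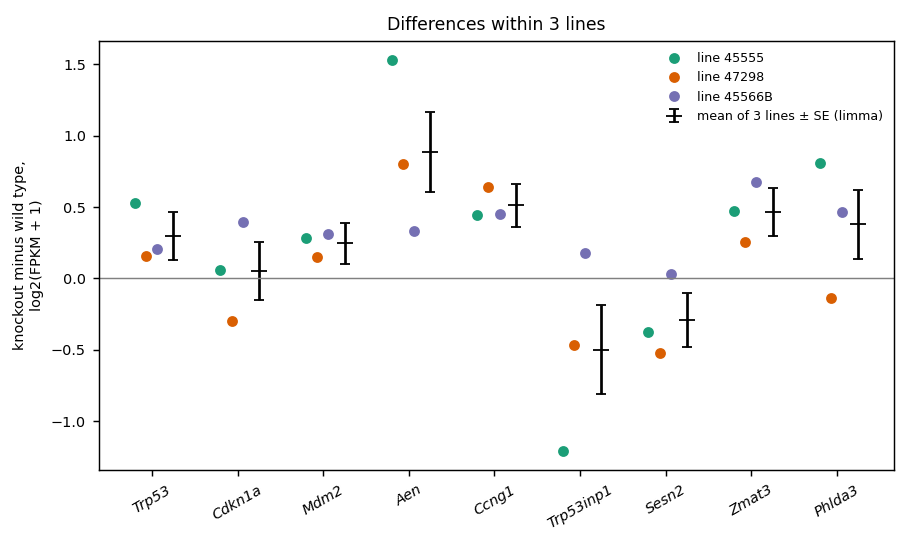
Points show the knockout minus wild-type difference of log2(FPKM + 1) in each of the 3 paired lines for the 9 genes, and black marks show the mean over lines ± SE from limma. All 3 points lie above 0 for Trp53, Mdm2, Aen, Ccng1 and Zmat3, and the purple points (45566B) lie above 0 for every gene.

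Differences between the lines themselves were tested with the genotype fitted, using both libraries of a line. The knockout and the wild-type library of a line served as its replicates. The spread in this test is thus how the knockout minus wild-type difference varies between lines, not that of repeat cultures. Sesn2 was the 1 member of 9 called (moderated F test in limma, adjusted p = 0.0224), against 14.0% of 12063 genes. Its line means spanned 2.13 log2 units, and the size rested on 45555: without it the line means were 0.07 units apart (adjusted p = 0.876, in a range of 0.00773 to 0.876 when a setting or line was changed). Without 45566B the span was nearly as large, at 2.06 units, while the adjusted p was 0.341 and 0 genes were called. Cdkn1a spanned 1.38 units (adjusted p = 0.0542) and passed with a pseudocount of 0.1 (adjusted p = 0.0436), while the settings tried gave 0.0436 to 0.576. Mdm2 spanned 0.91 units (adjusted p = 0.0701) and Ccng1 0.89 (adjusted p = 0.0799), both with 45566B highest and 45555 lowest. Without 47298 both passed, at adjusted p = 0.0347 for Mdm2 (0.0347 to 0.487 over all settings) and 0.0379 for Ccng1 (0.0379 to 0.467). Zmat3 was the most even, with line means within 0.08 units of each other (adjusted p = 0.920). The fibroblast and luminal markers given above also differ between these lines, and their part in these values was not tested.

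The upstream regulators showed no common change with the Jak1 label, and Cdkn2a RNA was not listed above 0 in 45555 and 45566B. Of 14 listed regulators all were tested, and 2 were higher and 1 lower in knockout in all 3 lines, against 14.3% and 13.3% of genes. None was called within lines, and the median difference was -0.02. Cdkn2a, whose locus makes p16Ink4a and p19Arf, was listed at 0 in both libraries of 45555 and both of 45566B. It stood at 0.930 FPKM in 47298 knockout and 33.3 FPKM in 47298 wild type, at 2.98 FPKM in 46295 knockout, and at 16.02 and 33.1 FPKM in 33373 and 33377 wild type. The value per gene does not separate the 2 products. Mdm2 was highest in 45566B and 33373, of which 33373 had Cdkn2a RNA and 45566B had none listed. In 47298 the Cdkn2a difference of -4.15 was seen between the same libraries in which fibroblast markers summed to 331 FPKM in knockout and 4897 FPKM in wild type, and their part in it was not tested. The 2 regulators with the smallest p within lines were Hipk2, a kinase that phosphorylates p53 (mean difference 0.44, SE 0.21), and Atr, a DNA damage kinase (0.39, SE 0.22), each with an adjusted p of 0.762. Chek2, the checkpoint kinase that acts on p53, was the 1 regulator of 14 called between lines (moderated F test in limma, adjusted p = 0.0493), against 14.0% of genes. It was at 10.9, 8.69, 19.5 and 18.2 FPKM in the knockout libraries of 45555, 47298, 45566B and 46295, against 9.13, 6.62, 19.6, 7.75 and 6.27 FPKM in the wild-type libraries. Mdm4 and Ppm1d, inhibitors of p53 signalling named after their values were seen, were at 8.94 to 15.3 FPKM and 4.44 to 21.2 FPKM over the 9 libraries. Ppm1d was at 4.44 FPKM in 47298 knockout and 21.2 FPKM in 47298 wild type.

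**Figure D3:**
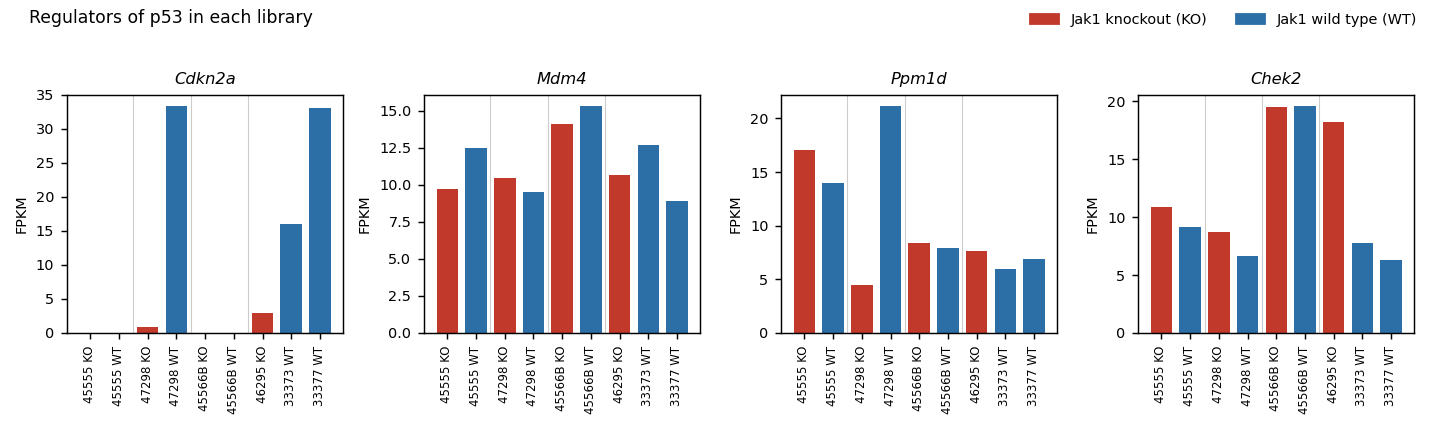
Bars show FPKM of 4 regulators of p53 in each of the 9 libraries (red for Jak1 knockout, blue for Jak1 wild type, linear axes from 0). Cdkn2a is listed at 0 in the 4 libraries of 45555 and 45566B and reaches 33.3 FPKM in 47298 wild type, and Chek2 is at 19.5 and 19.6 FPKM in 45566B knockout and wild type.

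Further p53 targets were taken from lists that do not contain the 9 members. These lists too were chosen with earlier results of these data known, so their counts are descriptions and not tests. Of 9 targets in apoptosis, 4 were higher and 0 lower in knockout in all 3 lines, against 14.3% and 13.3% of genes. The median was 0.34, and none was called within lines. Between lines 2 of the 9 were called, against 14.0% of genes. Bax, the pore-forming effector, was at 203, 138 and 138 FPKM in the knockout libraries of 45555, 47298 and 45566B, and at 146, 99.2 and 121 FPKM in their wild-type libraries (mean difference 0.38, SE 0.16, adjusted p = 0.762). The unpaired libraries went the other way for Bax, with 94.3 FPKM in 46295 knockout against 150 and 136 FPKM in 33373 and 33377 wild type. Pidd1, a death-domain adaptor, had a mean difference of 0.40 (SE 0.19). Perp, a desmosome protein and p53 target, was at 0.093 and 0.15 FPKM in 45555 knockout and wild type, at 163 and 29.6 FPKM in 47298 knockout and wild type, and at 201 and 186 FPKM in 45566B knockout and wild type (between lines, adjusted p = 0.0205). Ei24, a protein of the endoplasmic reticulum, also differed between lines (adjusted p = 0.0421), with 102.6 and 90.3 FPKM in 45566B knockout and wild type against 53.8 and 44.0 FPKM in 47298 and 43.7 and 39.7 FPKM in 45555.

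Of 25 targets in arrest, repair and metabolism, 23 were tested. In all 3 lines 7 were higher and 2 lower in knockout, against 14.3% and 13.3% of genes. The median was 0.04, and none was called within lines. Between lines 3 of the 23 were called, against 14.0% of genes. Within lines the smallest p values were those of Gtse1, a microtubule protein that removes p53 from the nucleus (mean difference 0.76, SE 0.24), and Eda2r, a receptor of the tumour necrosis factor receptor family (0.47, SE 0.17), each with an adjusted p of 0.762. Gdf15, a stress-induced cytokine, was at 23.1 and 13.8 FPKM in 45555 knockout and wild type, at 1.17 and 0.319 FPKM in 47298, and at 0.084 and 0.083 FPKM in 45566B. That difference between lines passed (adjusted p = 0.0122), as did that of Plk2, a kinase induced by p53 (adjusted p = 0.0219), with 88.6 and 129.6 FPKM in 45555, 15.8 and 13.4 in 47298 and 51.5 and 47.8 in 45566B, knockout given before wild type. Among the paired lines, Sesn2, Gdf15 and Plk2 were highest in 45555, and Mdm2 and Ccng1 were lowest there.

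Cell-cycle genes known to be repressed through p21 had the largest median of the 4 tested lists. All 14 were tested and higher in knockout on average, 12 of them in all 3 lines (14.3% of all genes were), with a median of 0.66, and none was called. At an unadjusted p under 0.05 there were 9 of 14, against 3.37% of genes. The list was chosen with earlier results of these data known, and its genes share a regulator. These counts thus describe the list and are not a test. Ccnb2, a mitotic cyclin, was at 73.1, 31.5 and 69.9 FPKM in the knockout libraries of 45555, 47298 and 45566B, against 46.0, 21.3 and 41.2 FPKM in their wild-type libraries (mean difference 0.65, SE 0.15, adjusted p = 0.762). Cdc25c, the phosphatase that activates Cdk1, had a mean difference of 0.68 (SE 0.16). By line the list's median was 1.13 in 45555, 0.68 in 47298 and 0.32 in 45566B, while Cdkn1a differed by 0.06, -0.30 and 0.40. The fibroblast sums of 331 and 4897 FPKM in 47298 knockout and wild type, and Acta2 at 1296 and 178 FPKM in 45555, stand beside the larger medians, and their part in them was not tested. In 45566B 13 of the 14 were higher in knockout, by 0.09 (Top2a) to 0.75 (Ccnb2), in a line where 52.1% of genes were higher. In that line both Cdkn1a and the median of this list were higher in knockout. Neither repression through p21 nor the rate of cell division was measured in these cultures. Between lines 10 of the 14 were called, against 14.0% of genes, with the smallest p for Cdc25c (adjusted p = 0.0301) and Aurkb (adjusted p = 0.0323), a mitotic kinase.

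**Figure D4:**
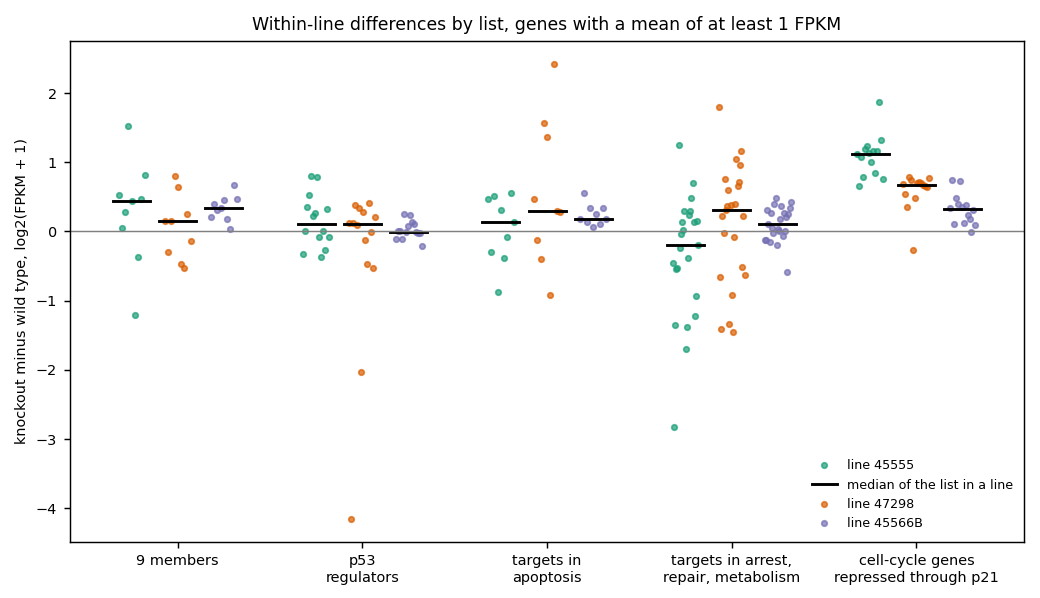
Points show the knockout minus wild-type difference of log2(FPKM + 1) of each tested gene in lines 45555, 47298 and 45566B (left to right, by colour) for the 9 members and 4 lists, and black bars show list medians. The cell-cycle genes lie highest, with medians of 1.13, 0.68 and 0.32, and the members have medians of 0.45, 0.15 and 0.33.

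Across the 9 libraries the members fell into loosely related patterns rather than a common level. Of the 36 pairs 27 had a positive Pearson r, with a median of 0.355 and a range of -0.615 to 0.907. Trp53 went most closely with Aen (r = 0.794) and Phlda3 (r = 0.768). Sesn2 ran opposite to Mdm2 (r = -0.615) and Ccng1 (r = -0.588). Sesn2 had the widest spread, with a standard deviation of 0.90 log2 units, then Cdkn1a with 0.70, against a median of 0.50 over all genes. Among 11264 other genes, those most like Trp53 were Trmt10a (r = 0.984), Pno1 (r = 0.981) and Utp18 (r = 0.974), and those most like Cdkn1a were Tet3 (r = 0.903), Nhlrc2 (r = 0.888) and Haus2 (r = 0.883). Pno1 was at 49.5, 20.4, 41.6 and 18.2 FPKM in knockout libraries and at 22.8, 16.2, 38.6, 26.8 and 27.3 FPKM in wild-type libraries, in the order of lines used above. The genes were picked as the highest of 11264 over 9 points, and libraries of a line share their origin, so these are descriptions.

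In build GRCm38 (mm10), by GENCODE vM21, all 9 genes are protein coding. Trp53 lies at chr11:69580359-69591873 and Cdkn1a at chr17:29090976-29100727, both on the plus strand, and Mdm2 at chr10:117688875-117710758 and Ccng1 at chr11:40748552-40755311 on the minus strand. Aen lies at chr7:78895854-78911209, Phlda3 at chr1:135766119-135769136 and Trp53inp1 at chr4:11156431-11174379 on the plus strand. Sesn2 at chr4:132492032-132510501 and Zmat3 at chr3:32334792-32366014 are on the minus strand. Cdkn1a overlaps an annotated transcript of unsettled status on the other strand by 1046 bases, and Sesn2 overlaps Gm12981 on its own strand by 6089 bases. Neither has a row in the table. Strandedness is not stated, so reads of overlapping transcripts cannot be told apart.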

How the data were processed

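RNA was measured in 9 libraries, grouped by the labelled Jak1 state. The deposited table gives FPKM by gene symbol. For these values the submitters' processing notes name mm10 and the tools Cuffnorm, Cufflinks 2.2, TopHat2 2.1 and cutadapt, without saying what each did; scaling option and annotation are not stated. Of 24346 rows, 4 with repeated date-like names were left out. A smaller table of 4 libraries held identical values. As fragment counts are not part of the table, count models and counting intervals were not used. Relative depth was read from the most frequent ratio between libraries of values under 0.5 FPKM.

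Tests were two-sided and used log2(FPKM + 1) in limma 3.58.1 (R 4.3.3), with trended moderated variances and Benjamini-Hochberg adjustment at 0.05 over all genes whose mean reached 1 FPKM. Fold changes of low genes are understated on this scale. The within-line fit had the line as a block. That pairing is given by the line numbers in the titles, and libraries of a line deviated together (correlation 0.700 for 45555, 0.400 for 47298, 0.804 for 45566B). The fit over 9 libraries had no block, and the fit between lines tested the line with genotype fitted. The fits were tested on simulated data.

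All 9 members are named, and from each of 5 p53 lists the 2 genes with the smallest p within lines and the 2 with the smallest p between lines. The p53 family list had no gene tested. The 3 genes most like Trp53 and Cdkn1a were chosen by Pearson r, leaving out small RNA, Rik, Gm-numbered and pseudogene names. Cop1 was matched as Rfwd2. Members and lists were chosen with earlier results of these data known. Rescaling and leaving out lines for the direction counts were added after the data were seen.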

Additional observations from a re-analysis of the deposited data

Results flagged for a closer look

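In 2 of the 18 groups of member values (9 genes in each Jak1 state), and in 4 groups of the other named genes, 1 library stood far from the rest of its state, with a gap to the nearest library that was large against the whole range. Of 48 such groups 6 did so. Chance gives about 1 in 20 for groups picked without regard to their values, a rate that does not hold here, since the other named genes were picked by their p and both states of line 45555 account for 4 of the 6.

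Sesn2 stood apart in both states in line 45555. It was at 23.5 FPKM in 45555 knockout, against 4.58 to 5.67 FPKM in the other 3 knockout libraries, and at 30.7 FPKM in 45555 wild type, against 5.31 to 10.5 FPKM in the other 4 wild-type libraries. Gdf15 stood apart in the same libraries, at 23.1 FPKM in 45555 knockout against at most 1.17 in the other knockout libraries, and at 13.8 FPKM in 45555 wild type against at most 3.40 in the others. Ccnb2 was low in 47298 knockout, at 31.5 FPKM against 69.9 to 73.6 FPKM. Chek2 was high in 45566B wild type, at 19.6 FPKM against 6.27 to 9.13 FPKM. A difference of the Jak1 contrast between lines could not be tested, since each line holds 1 library a state.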

How the results depend on the processing

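Alternatives were a pseudocount of 0.1, no filter on low values, rescaling to the same 75th percentile, the other choice of block, a variance without a trend (within lines), leaving out 33373 and 33377 (9 libraries), and leaving out each line or library. The 27 gene values kept direction and side of the threshold in 240 of 252 settings, turned sign in 7 and changed side in 5. Within lines the count of members called was 0 in all 8 settings, also without the replicate block (0 genes), and the count of genes was 0 to 6 when a line was left out (6 without 47298). When a line was left out Cdkn1a ranged over -0.12 to 0.23, Aen over 0.57 to 1.16, Trp53 over 0.18 to 0.37, Phlda3 over 0.16 to 0.64, Trp53inp1 over -0.84 to -0.14 and Sesn2 over -0.45 to -0.17. The members higher in every line kept were 5 to 7, and the cell-cycle genes 12 to 13 of 14. Over the 9 libraries 0 to 1 genes and 0 members were called when 1 library was left out, and with the line as a random replicate block 0 genes. In those settings Cdkn1a ranged over -0.41 to 0.17, Mdm2 over -0.12 to 0.21, Ccng1 over -0.011 to 0.38 and Sesn2 over -0.86 to 0.010, so none of these has a stable sign over the 9 libraries. Between lines the members called were 2 with a pseudocount of 0.1 and 0 to 3 when a line was left out, when the genes called ran from 0 (without 45566B) through 276 (without 45555) to 3515 (without 47298). Leaving out a line or library lowers the number of samples, and the cause of these moves was not tested further. With 1 library a state in a line, and 2 residual degrees of freedom, small differences such as that of Mdm2 cannot be resolved.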
